A study of Homo sapiens with 30 samples.

Results

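EWSR1, FLI1 and 8 further ETS transcription factor genes (ERG, FEV, ETS1, ETS2, ETV1, ETV4, ETV5 and ETV6) were followed through 3 Ewing sarcoma cell lines exposed to the BET bromodomain inhibitor BMS-986158. The 10 genes were chosen by name, as the parent genes of the Ewing sarcoma fusions and their close relatives, and were found by Ensembl identifier among the 33538 genes of the deposited count table. All 10 passed the filter on low counts that left 16713 genes for testing. ERG and FEV are close to 0 in CHLA10. FEV passed through the A673 groups, and ERG passed through the DMSO group of TC32, the one group in which all 3 libraries reached the level the filter asks for.

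Ewing sarcoma is a tumour of bone and soft tissue driven by a chromosomal translocation that joins the start of EWSR1, an RNA-binding protein gene, to the DNA-binding end of an ETS gene. FLI1 is the usual partner, and ERG, FEV, ETV1 and ETV4 are rarer ones. ETS proteins bind DNA around a GGAA core, and the EWSR1-FLI1 fusion protein also binds runs of repeated GGAA. BET proteins bind acetylated histones at enhancers and promoters and help transcription, and BET inhibitors release them from chromatin.

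Poly(A)-selected RNA of 30 libraries was sequenced in 10 groups of 3. The BMS-986158 groups were CHLA10, A673 and TC32 cells at 5 nM for 72 h, called 3 days in the labels, and CHLA10 and A673 cells that had been kept at 5 nM without a break for 20 days. Each had a DMSO vehicle group of the same line and time label, and how long the 20-day vehicle cells were kept in DMSO is not stated. All 3 lines carry the genotype label EWS::FLI1. CHLA10 was grown in IMDM with added insulin, transferrin and selenium and with more serum than A673 and TC32, which were grown in RPMI, so that line and medium cannot be told apart. No label says that replicates came from separate cultures, and p-values therefore measure the spread between libraries. Every library carries the same batch label.

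Library totals ran between 16083677 and 48949739 counts. Levels below are counts-per-million (CPM) values on TMM-scaled library sizes. Changes are log2 ratios of BMS-986158 over DMSO with their standard error (SE), and a gene was called when its edgeR p-value, adjusted over all genes tested, was under 0.05. Of 8 markers of Ewing sarcoma, 7 were well detected in each line, with CD99, the surface antigen used in diagnosis, averaging between 367 and 3011 CPM. NKX2-2, a fusion target used as a diagnostic marker, averaged between 15.1 and 92.3 CPM over the A673 and TC32 groups but between 0.290 and 1.70 CPM over the CHLA10 groups. The summed level of 7 endothelial markers reached at most 11.8 CPM and that of 8 haematopoietic markers at most 2.90 CPM, with CD3E at 0 counts in all libraries. The Ewing sarcoma markers called lower under BMS-986158 numbered 4 in 3-day CHLA10, 1 in 3-day A673, 3 in TC32, 5 in 20-day CHLA10 and 6 in 20-day A673. Among all genes tested, 15.7%, 18.4%, 22.8%, 17.2% and 19.9% were called lower in those comparisons. The sum of the 8 Ewing sarcoma markers was between 3041 and 3495 CPM in BMS-986158 TC32 cells and between 4365 and 4828 CPM in DMSO. In 20-day A673 cells it was between 846 and 1004 CPM in BMS-986158 and between 1288 and 1374 CPM in DMSO. In 3-day CHLA10 it was 2327 to 2457 CPM in BMS-986158 and 2530 to 2569 CPM in DMSO. The sums overlapped in 3-day A673 (1289 to 1334 CPM in BMS-986158, 1302 to 1595 in DMSO) and in 20-day CHLA10 (1903 to 2954 and 2368 to 3261 CPM). CD99 averaged 1838 CPM in BMS-986158 TC32 cells and 3011 CPM in DMSO. Its mean was higher in BMS-986158 than in DMSO in each other comparison. The haematopoietic sum was at most 0.749 CPM in any BMS-986158 library and at least 1.10 CPM in any DMSO library, and the part of these markers in the results below was not tested. Of 3 genes read for the response to BET inhibition, HEXIM1 rose in all 5 comparisons by between 0.66 and 1.06 log2 and SERPINI1 by between 1.82 and 3.20 log2. MYC, the growth-promoting transcription factor, rose by 0.45, 0.77 and 0.69 log2 in 3-day A673, TC32 and 20-day A673, fell by 0.28 log2 in 20-day CHLA10 and was not called in 3-day CHLA10 (0.20 log2). The 4 libraries furthest from their replicates were each replicate 3, in 20-day BMS-986158 A673, 3-day DMSO A673, 20-day BMS-986158 CHLA10 and 20-day DMSO CHLA10. They are called below the libraries that stood apart. The standard deviation of their log2 differences ran from 0.738 down to 0.573. The next library was at 0.569, so no gap set the 4 off from the rest. Because RNA was taken from whole cultures, fewer cells making a transcript and less transcript per cell cannot be told apart.

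**Figure D1:**
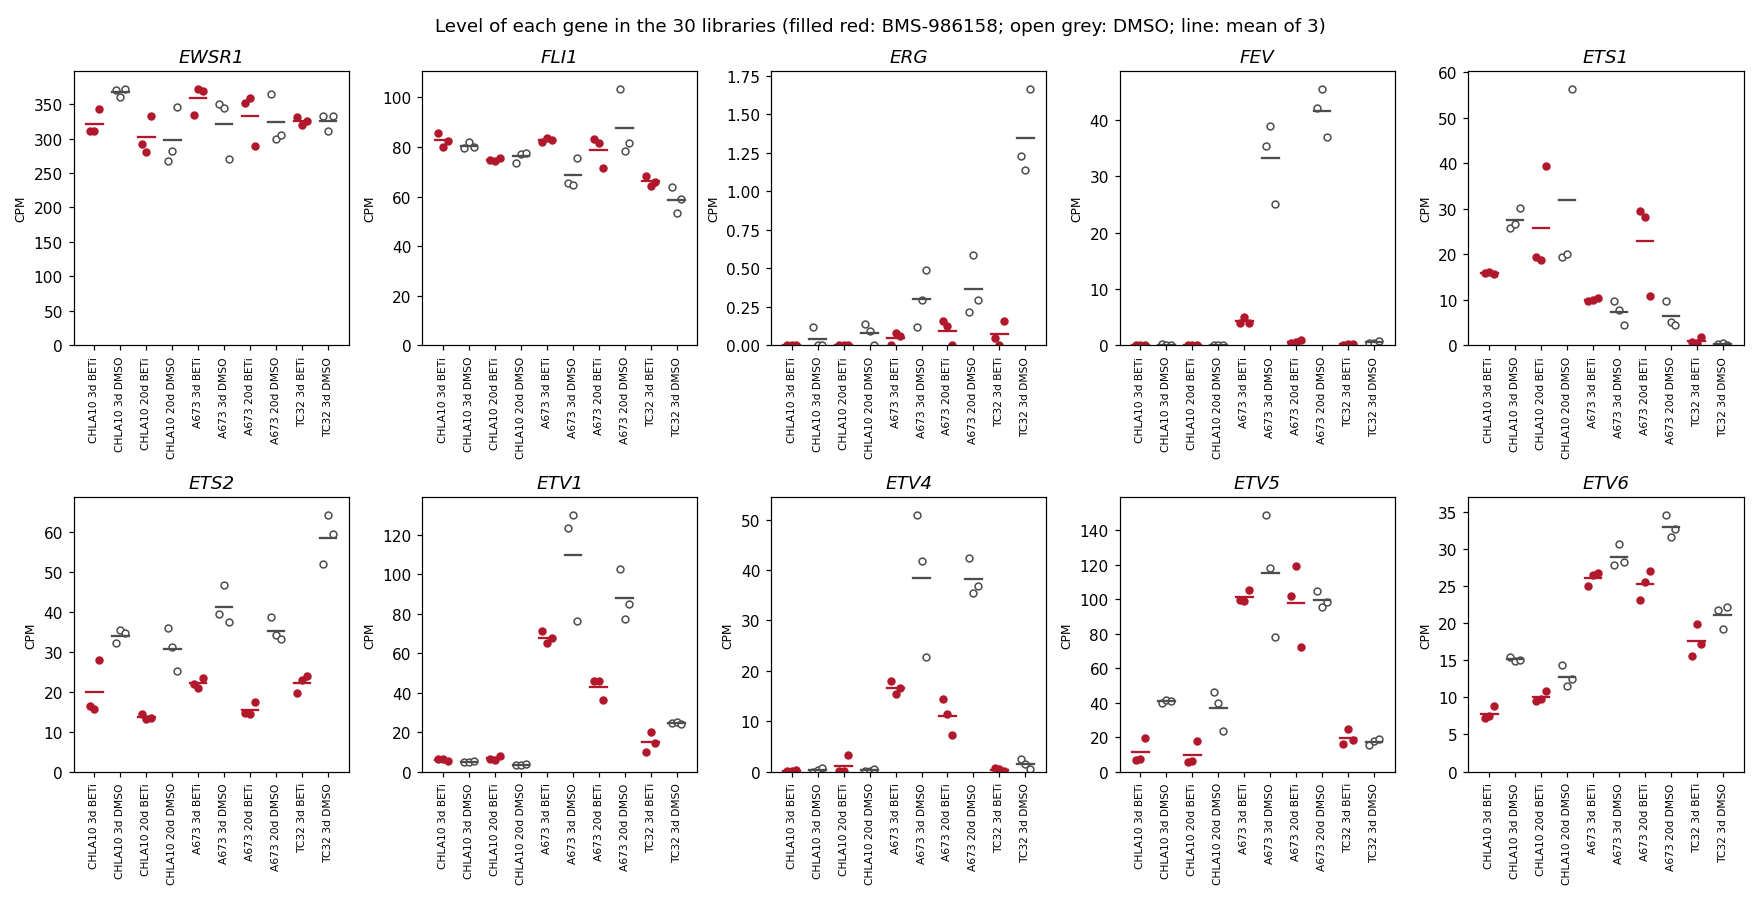
Level of each of the 10 genes (y axis, CPM, starting at 0) in every library of the 10 groups (x axis, line, days and treatment); points are libraries and lines are means of 3. ETS2 is lower in every BMS-986158 group than in its DMSO group, FEV is high in the A673 DMSO groups alone, EWSR1 spans 267 to 372 CPM and FLI1 53.3 to 104 CPM over all libraries.

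EWSR1, which encodes a member of the FET family of RNA-binding proteins, was the most abundant of the 10 genes and was not called in any of the 5 comparisons. CHLA10 cells had 310, 311 and 343 CPM after 3 days of BMS-986158, against 370, 360 and 372 CPM in DMSO. Treated and DMSO libraries that do not overlap are common in these data, at 54.9%, 46.6% and 55.1% of all genes tested in 3-day CHLA10, A673 and TC32 and 43.2% and 46.4% in 20-day CHLA10 and A673. The EWSR1 levels of these 2 CHLA10 groups did not overlap, but the change of -0.19 ± 0.11 log2 (SE, n = 3 each) gave an adjusted p of 0.185. A673 cells had 334, 372 and 369 CPM at 3 days of BMS-986158, against 349, 344 and 270 CPM in DMSO. TC32 cells had 332, 319 and 326 CPM in BMS-986158, against 333, 311 and 333 CPM in DMSO, with an estimated change of 0.00 and a 95% interval between -0.21 and 0.21 log2. Both groups of A673 and of TC32 overlapped. At 20 days CHLA10 had 293, 281 and 333 CPM in BMS-986158, against 267, 282 and 345 CPM in DMSO, and A673 had 351, 358 and 289 CPM in BMS-986158, against 365, 299 and 306 CPM in DMSO. The 20-day groups overlapped in both lines, with 95% intervals of the change between -0.19 and 0.23 log2 in CHLA10 and between -0.17 and 0.25 log2 in A673. The order of the 10 group means, between 298 and 367 CPM, had overlapping ranges at each neighbouring step. Without the 4 libraries that stood apart, a setting added after the data were seen, the 3-day CHLA10 change was nearly the same size (-0.20 log2) and was called. None of these 4 libraries is in a 3-day CHLA10 group, so the libraries compared were the same and only the rest of the fit changed.

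FLI1, the ETS gene whose DNA-binding end lies in the fusion, lay between 53.3 and 104 CPM in all libraries. Gene counts add up reads of the fusion and of the unrearranged genes, so what follows holds for that sum. A673 cells had 82.0, 83.5 and 83.0 CPM after 3 days of BMS-986158, against 65.5, 64.7 and 75.4 CPM in DMSO. All 3 treated libraries were above all 3 DMSO libraries, and FLI1 was called higher by 0.27 ± 0.09 log2 (1.21-fold, adjusted p = 0.0214). That call was lost with the RLE scaling (adjusted p = 0.0582), without the filter on low counts (0.0603), with only the A673 libraries fitted (0.102) and without DMSO replicate 1 (0.0809), DMSO replicate 2 (0.0952) or BMS-986158 replicate 3 (0.0541). CHLA10 had 85.5, 80.1 and 82.5 CPM at 3 days of BMS-986158, against 79.7, 81.8 and 80.01 CPM in DMSO, and 74.6, 74.2 and 75.7 CPM at 20 days of BMS-986158, against 73.7, 77.4 and 77.5 CPM in DMSO. Both CHLA10 comparisons overlapped, with intervals of the change between -0.14 and 0.22 log2 at 3 days and between -0.20 and 0.15 log2 at 20 days. TC32 had 68.4, 64.4 and 65.8 CPM in BMS-986158, against 63.8, 53.3 and 58.9 CPM in DMSO, which did not overlap but were not called (0.17 ± 0.09 log2, adjusted p = 0.125). A673 at 20 days had 83.3, 81.7 and 71.5 CPM in BMS-986158, against 104, 78.3 and 81.7 CPM in DMSO. These ranges overlapped, and the change of -0.16 ± 0.09 log2 was not called (adjusted p = 0.182). Scaling by library size alone, which moved the median of all genes there to -0.12 log2, gave FLI1 -0.28 log2 and a call (adjusted p = 0.00852).

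The change of FLI1 in A673 was lower at 20 days than at 3 days, and this difference was itself called (-0.43 ± 0.13 log2, adjusted p = 0.0396), although leaving out any one of 9 of the 12 libraries ended the call. FLI1 was also called higher in 20-day DMSO A673 cells than in 3-day DMSO A673 cells, by 0.36 ± 0.09 log2 (adjusted p = 0.0212). This vehicle change is itself a part of the difference of effects and not a separate result. Mean FLI1 in A673 was 68.55 CPM at 3 days and 87.8 CPM at 20 days in DMSO, and 82.8 and 78.9 CPM in BMS-986158. Leaving out DMSO replicate 1 of the 20-day A673 group, at 104 CPM the highest FLI1 value of the 30 libraries, brought the difference of effects to -0.30 log2 and the vehicle change to 0.22 log2, neither of them called.

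Set against EWSR1 in the same library, the FLI1 count was 27.6%, 25.7% and 24.1% of the EWSR1 count in 3-day BMS-986158 CHLA10 cells, against 21.6%, 22.7% and 21.5% in DMSO. TC32 had 20.6%, 20.2% and 20.2% in BMS-986158, against 19.2%, 17.2% and 17.7% in DMSO. In both lines all treated libraries were above all DMSO libraries. A673 at 20 days showed the reverse order without overlap, at 23.7%, 22.8% and 24.8% in BMS-986158, against 28.3%, 26.2% and 26.8% in DMSO. Each of these 3 differences gave p = 0.1 in an exact two-sided permutation test, the smallest p that 3 against 3 libraries can give. The ranges overlapped in 3-day A673 and 20-day CHLA10 cells, where the exact permutation p was 0.6 in both. Among 3-day DMSO A673 libraries, replicate 3, one that stood apart, was at 27.9% while the others were both at 18.8%. Without it the 3-day A673 means were 23.2% in BMS-986158 and 18.8% in DMSO, with no overlap, a setting added after the data were seen. RHBDD3, which lies on the opposite strand and shares exon sequence with the start of EWSR1, held 11.6% as many counts as EWSR1 and fell in all 5 comparisons, by between 0.31 and 0.69 log2; whether the counting used strand is not stated, and its part in the EWSR1 values was not tested.

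**Figure D2:**
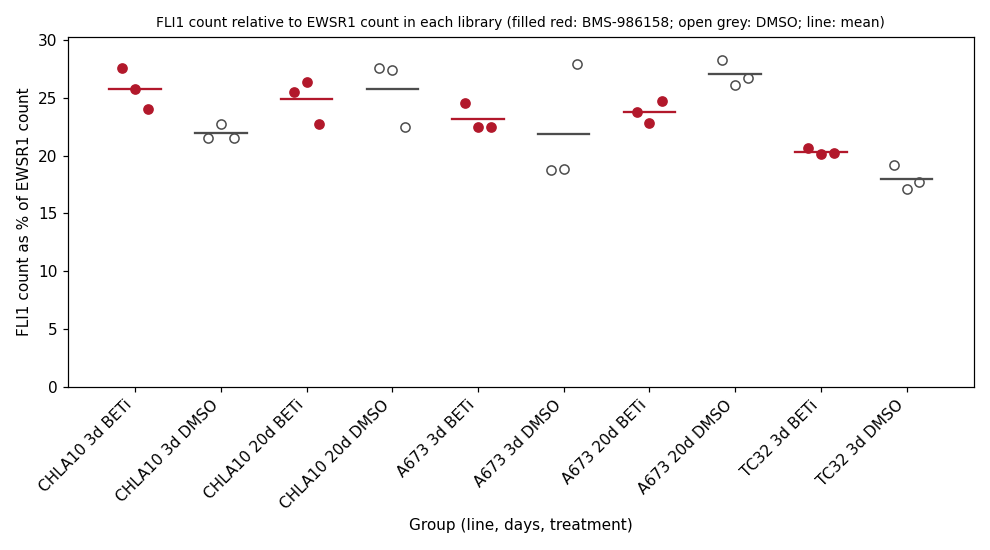
FLI1 count as a percentage of the EWSR1 count (y axis, starting at 0) in each library by group (x axis); filled points are BMS-986158, open points DMSO and lines the means of 3. BMS-986158 points lie above DMSO points in 3-day CHLA10 and in TC32, and below them in 20-day A673.

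ERG and FEV are the closest relatives of FLI1. ERG is best known from blood vessels and blood stem cells, and FEV is the factor that sets up serotonin neurons. FEV fell the furthest of the 10 genes. A673 cells had 3.87, 4.94 and 3.91 CPM of FEV after 3 days of BMS-986158, against 35.5, 38.9 and 25.2 CPM in DMSO. By 20 days FEV was at 0.371, 0.635 and 0.910 CPM in BMS-986158 A673 cells, against 42.2, 45.5 and 36.9 CPM in DMSO. The groups were far apart at both times, with falls of 7.82-fold (-2.97 ± 0.25 log2, adjusted p = 3.83e-09) and 64.6-fold (-6.01 ± 0.32 log2, adjusted p = 4.25e-13). The counts behind the last treated group were 7, 10 and 17, against 1178, 1241 and 762 in DMSO. FEV was lower still at 20 days than at 3 days by the test of the difference (-3.05 ± 0.39 log2, adjusted p = 5.26e-05). TC32 had 0.0988, 0.147 and 0.213 CPM in BMS-986158, against 0.447, 0.444 and 0.799 CPM in DMSO, a fall of 1.82 ± 0.52 log2 (adjusted p = 0.00583) that limma-voom placed just past the threshold (adjusted p = 0.0511). In CHLA10 FEV had 0 counts in the 3 treated libraries at 3 days, against 4, 2 and 1 counts in DMSO. With 3 counts over the treated group as the floor, FEV in DMSO was 2.89-fold above that floor. The counting error of the 7 DMSO counts is left out of that ratio, so it is not a firm lower limit. The edgeR call of FEV there (adjusted p = 0.00900) was lost without DMSO replicate 1 (adjusted p = 0.0565). At 20 days CHLA10 had 0, 2 and 2 FEV counts in BMS-986158, against 0, 1 and 0 in DMSO, a ratio of 3.11 with a counting interval between 0.308 and 153.

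ERG gave 141 counts in all 30 libraries together. TC32 DMSO cells held the most, and TC32 had 1, 0 and 3 counts in BMS-986158, against 22, 23 and 25 counts in DMSO. These DMSO libraries are also those through which ERG passed the filter, so a lower treated level was favoured by the filter, and the values are given as a description. All treated TC32 libraries were below all DMSO libraries, with a change of -4.19 ± 0.89 log2, and -5.47 log2 without BMS-986158 replicate 3. A673 had 0, 2 and 3 counts at 3 days of BMS-986158, against 2, 7 and 13 counts in DMSO. In CPM these were 0, 0.0797 and 0.0607 in BMS-986158 and 0.118, 0.291 and 0.490 in DMSO, and the call (-2.44 ± 0.93 log2, adjusted p = 0.0448) was lost when any one of 5 of the 6 libraries was left out. The exception was DMSO replicate 1. At 20 days A673 had 0.159, 0.127 and 0 CPM of ERG in BMS-986158, against 0.215, 0.587 and 0.291 CPM in DMSO, which was not called (adjusted p = 0.106). CHLA10 had no ERG count in the 6 treated libraries, against 2 counts over the 3 DMSO libraries at 3 days and 5 at 20 days, where the gene was not called at either time (adjusted p = 0.273 and 0.0762).

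ETS2 and ETS1 are the founding members of the family and are phosphorylated by ERK in response to growth factor signals. ETS2 was the gene among the 10 that fell in all 5 comparisons, and its treated and DMSO libraries did not overlap in any of them. ETS2 has its RefSeq start on chromosome 21, and 250 bases before it on the plus strand are shown because of that fall; the window lies at chr21:38804933-38805182 (GRCh38.p14) and holds no annotated exon. GGAA or its complement TTCC is in capitals.
ETS2 upstream: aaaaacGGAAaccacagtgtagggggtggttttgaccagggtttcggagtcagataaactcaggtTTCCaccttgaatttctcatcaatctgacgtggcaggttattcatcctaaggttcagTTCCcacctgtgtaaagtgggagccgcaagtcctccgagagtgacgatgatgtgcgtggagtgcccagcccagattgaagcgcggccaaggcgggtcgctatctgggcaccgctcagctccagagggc
The window has 3 GGAA matches over both strands, the same as the median of 27305 RefSeq promoter windows, of which 92.8% hold at least 1 match. RefSeq lists a further ETS2 start, whose window holds 6 GGAA matches and overlaps ETS2 exon sequence. Which start these cells use was not measured.

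CHLA10 cells had 16.5, 15.6 and 27.8 CPM of ETS2 after 3 days of BMS-986158, against 32.1, 35.4 and 34.6 CPM in DMSO. A673 cells had 22.0, 20.9 and 23.3 CPM at 3 days of BMS-986158, against 39.5, 46.6 and 37.5 CPM in DMSO. TC32 cells had 19.8, 23.0 and 23.9 CPM in BMS-986158, against 52.0, 64.2 and 59.4 CPM in DMSO. The treated levels of the 3 lines were alike, whereas the DMSO level was highest in TC32. The falls were 1.71-fold in CHLA10 (-0.77 ± 0.16 log2, adjusted p = 0.000527), 1.86-fold in A673 (-0.90 ± 0.16, adjusted p = 7.82e-05) and 2.64-fold in TC32 (-1.40 ± 0.16, adjusted p = 1.02e-07). At 20 days CHLA10 had 14.5, 13.1 and 13.4 CPM in BMS-986158, against 36.0, 31.2 and 25.1 CPM in DMSO. A673 had 14.7, 14.3 and 17.4 CPM at 20 days of BMS-986158, against 38.5, 34.1 and 33.2 CPM in DMSO. These falls were 2.25-fold (-1.17 ± 0.16 log2, adjusted p = 2.37e-06) and 2.28-fold (-1.19 ± 0.16 log2, adjusted p = 1.38e-06). The 20-day effect differed from the 3-day effect by -0.40 ± 0.23 log2 in CHLA10 and by -0.29 ± 0.23 log2 in A673, neither of which was called (adjusted p = 0.305 and 0.495). No difference in effect between lines was called either, the one nearest to it being TC32 minus CHLA10 (-0.63 ± 0.22 log2, adjusted p = 0.0594), which DESeq2 did call.

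ETS1 was called in 1 comparison, 20-day A673, where treated cells had 29.6, 28.3 and 10.8 CPM, against 9.74, 5.10 and 4.36 CPM in DMSO. It rose 3.55-fold there (1.83 ± 0.45 log2, adjusted p = 0.00229), with all treated libraries above all DMSO libraries. CHLA10 at 3 days had 15.8, 15.99 and 15.6 CPM in BMS-986158, against 25.9, 26.6 and 30.1 CPM in DMSO, which did not overlap but were not called (-0.80 ± 0.43 log2, adjusted p = 0.169). CHLA10 at 20 days had 19.4, 18.7 and 39.4 CPM in BMS-986158, against 19.4, 20.0 and 56.3 CPM in DMSO. In both 20-day CHLA10 groups replicate 3 was far above the others, and both are libraries that stood apart. A673 at 3 days had 9.66, 10.0 and 10.3 CPM in BMS-986158, against 9.78, 7.74 and 4.53 CPM in DMSO, and TC32 had 0.741, 0.491 and 1.76 CPM in BMS-986158, against 0.223, 0.592 and 0.0666 CPM in DMSO. Both of these comparisons overlapped and neither was called (adjusted p = 0.461 and 0.126). DESeq2 did call ETS1 higher in TC32 (1.67 log2, adjusted p = 0.0208). The effect in A673 minus that in CHLA10 at 20 days was 2.13 ± 0.62 log2 (adjusted p = 0.0151), and 1.44 log2 with no call once DMSO replicate 3 of CHLA10 was left out.

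ETV1, ETV4 and ETV5 form the PEA3 subfamily, whose transcription is raised by ERK signalling and held down by the repressor CIC, and whose proteins are broken down with the help of the COP1 ubiquitin ligase. All 3 genes were far higher in A673 than in the other lines. ETV1 is shown with the 250 bases before its first listed RefSeq start because it fell in A673 and TC32 but rose in 20-day CHLA10 cells and because the window was seen to hold GGAA in tandem. It lies on the minus strand at chr7:13990703-13990952 (GRCh38.p14), with GGAA and TTCC in capitals.
ETV1 upstream: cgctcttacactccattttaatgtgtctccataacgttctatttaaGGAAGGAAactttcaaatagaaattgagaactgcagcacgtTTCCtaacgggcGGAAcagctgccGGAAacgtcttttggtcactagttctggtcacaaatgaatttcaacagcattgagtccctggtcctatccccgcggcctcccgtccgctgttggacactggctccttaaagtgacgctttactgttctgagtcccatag
This window has 5 GGAA matches and 1 match to GGAAGGAA on either strand. That run stands in 2.99% of the 27305 promoter windows, a share from which nothing is read, since the window was chosen for the run. RefSeq lists 6 ETV1 starts, 4 of whose windows lack the run, and no measure here tells which is used or whether any factor binds there.

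ETV1 had 71.3, 64.9 and 67.4 CPM in A673 after 3 days of BMS-986158, against 124, 130 and 76.1 CPM in DMSO. At 20 days A673 had 45.7, 45.9 and 36.4 CPM in BMS-986158, against 103, 77.0 and 84.8 CPM in DMSO. TC32 had 9.83, 20.0 and 14.6 CPM in BMS-986158, against 24.4, 25.0 and 24.3 CPM in DMSO. ETV1 fell in each of these, without overlap, by 0.69 ± 0.18 log2 in 3-day A673 (adjusted p = 0.00325), 1.05 ± 0.18 log2 in 20-day A673 (adjusted p = 3.42e-05) and 0.73 ± 0.19 log2 in TC32 (adjusted p = 0.00230). CHLA10 went the other way. It had 6.42, 5.80 and 7.95 CPM at 20 days of BMS-986158, against 3.28, 3.21 and 3.75 CPM in DMSO, a rise of 1.97-fold (0.98 ± 0.22 log2, adjusted p = 0.000918). At 3 days CHLA10 had 6.44, 6.42 and 5.33 CPM in BMS-986158, against 4.63, 5.04 and 5.18 CPM in DMSO, which did not overlap and were not called (0.29 ± 0.21 log2, adjusted p = 0.325). The effect differed between lines by the test of the difference itself, at -0.98 ± 0.28 log2 for A673 minus CHLA10 at 3 days (adjusted p = 0.0214), -1.02 ± 0.28 log2 for TC32 minus CHLA10 at 3 days (adjusted p = 0.0168) and -2.02 ± 0.28 log2 for A673 minus CHLA10 at 20 days (adjusted p = 7.55e-06). Both 3-day differences were lost with limma-voom, at -0.94 and -1.07 log2, and that between A673 and CHLA10 also when any one of 5 of the 12 libraries was left out.

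ETV5 fell in CHLA10 and was not called in A673 or TC32. CHLA10 had 6.88, 7.26 and 19.4 CPM after 3 days of BMS-986158, against 40.0, 41.2 and 40.9 CPM in DMSO. At 20 days CHLA10 had 5.29, 5.99 and 17.4 CPM in BMS-986158, against 46.2, 40.0 and 23.4 CPM in DMSO. The treated libraries were below the DMSO libraries at both times, with replicate 3 the highest of each treated group. The falls were 3.64-fold at 3 days (-1.87 ± 0.39 log2, adjusted p = 0.000936) and 3.84-fold at 20 days (-1.94 ± 0.39 log2, adjusted p = 0.000572). Without replicate 3 of the treated group the fall was 2.52 log2 at 3 days and 2.70 log2 at 20 days. A673 had 99.5, 98.9 and 105 CPM at 3 days of BMS-986158, against 149, 118 and 78.0 CPM in DMSO, and 102, 119 and 72.5 CPM at 20 days of BMS-986158, against 105, 95.4 and 98.5 CPM in DMSO. TC32 had 15.96, 24.4 and 18.5 CPM in BMS-986158, against 15.6, 17.9 and 18.6 CPM in DMSO. All 3 of these comparisons overlapped, with intervals between -0.89 and 0.52 log2 in 3-day A673, between -0.74 and 0.68 log2 in 20-day A673 and between -0.58 and 0.94 log2 in TC32. The effect in CHLA10 differed from that in A673 at 3 days (A673 minus CHLA10 1.68 ± 0.53 log2, adjusted p = 0.0444) and at 20 days (1.91 ± 0.53 log2, adjusted p = 0.0122), and from that in TC32 (TC32 minus CHLA10 2.04 ± 0.55 log2, adjusted p = 0.0164). The 3-day difference between A673 and CHLA10 sat close to the threshold and was lost on leaving out any one of 10 of the 12 libraries. That between TC32 and CHLA10 was lost without BMS-986158 replicate 1 (adjusted p = 0.0519) or 2 (0.0508) of CHLA10 or BMS-986158 replicate 2 of TC32 (0.056). Without BMS-986158 replicate 3 of CHLA10 the 3 differences were larger, at 2.34, 2.67 and 2.71 log2. DGKG, whose annotated exons overlap those of ETV5 on the same strand, gave 3.51% as many counts.

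ETV4 was measurable at more than a few CPM in A673 alone. A673 had 14.4, 11.4 and 7.17 CPM at 20 days of BMS-986158, against 42.3, 35.4 and 36.8 CPM in DMSO, a fall of 3.48-fold (-1.80 ± 0.61 log2, adjusted p = 0.0229). DESeq2 did not call it (adjusted p = 0.119), nor did the fits without BMS-986158 replicate 2 (adjusted p = 0.0614), BMS-986158 replicate 3 (0.0745) or DMSO replicate 1 (0.0565). A673 at 3 days had 18.02, 15.3 and 16.5 CPM in BMS-986158, against 50.9, 41.9 and 22.7 CPM in DMSO. These did not overlap, and the change of -1.21 ± 0.60 log2 was not called (adjusted p = 0.124). A fall was called there by limma-voom (-1.10 log2, adjusted p = 0.00248), with only the A673 libraries fitted (-1.22 log2, 0.00437) and without the 4 libraries that stood apart (-1.44 log2, 0.00011). TC32 had 0.642, 0.442 and 0.107 CPM in BMS-986158, against 2.40, 1.53 and 0.400 CPM in DMSO, with some overlap and no call (adjusted p = 0.131). CHLA10 at 3 days had 0.159, 0.0445 and 0.347 CPM in BMS-986158, against 0, 0.296 and 0.610 CPM in DMSO. CHLA10 at 20 days had 3, 2 and 80 counts in BMS-986158, against 2, 3 and 10 counts in DMSO, so replicate 3 of the treated group held nearly all of them. The fitted change was 2.13 ± 1.08 log2 (adjusted p = 0.139), 1.81 log2 with a replicate block (adjusted p = 0.0249), and -1.36 log2 without that library (adjusted p = 0.462). The difference A673 minus CHLA10 at 20 days, -3.93 ± 1.22 log2 (adjusted p = 0.0236), was -0.44 log2 without that library and was then not called. DHX8, an RNA helicase gene on the opposite strand whose exons overlap ETV4, had 42331 counts over all libraries, against 7716 for ETV4, and its part in the low ETV4 values was not tested.

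ETV6, a repressor of the family that is a frequent fusion partner in leukaemia, fell in CHLA10 at both times and in A673 at 20 days. Its upstream window lies on the plus strand at chr12:11649424-11649673 (GRCh38.p14) and is shown, with GGAA and TTCC in capitals, beside that of ETS2 as the other gene of the 10 that fell in both lines kept for 20 days and rose in none.
ETV6 upstream: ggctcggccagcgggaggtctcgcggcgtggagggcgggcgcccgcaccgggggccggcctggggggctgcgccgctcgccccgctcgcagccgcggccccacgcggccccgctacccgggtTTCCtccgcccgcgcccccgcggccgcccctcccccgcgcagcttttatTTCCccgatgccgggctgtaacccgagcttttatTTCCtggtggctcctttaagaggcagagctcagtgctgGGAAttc
It has 4 GGAA matches and none to GGAAGGAA. Among the 10 genes, 6 have an entry in the promoter table used.

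ETV6 in CHLA10 was at 7.15, 7.44 and 8.76 CPM after 3 days of BMS-986158, against 15.4, 14.9 and 15 CPM in DMSO. It was at 9.49, 9.76 and 10.8 CPM after 20 days of BMS-986158, against 14.3, 11.5 and 12.4 CPM in DMSO. Treated libraries were below DMSO libraries at both times, and the fall was 0.96 ± 0.12 log2 at 3 days (1.94-fold, adjusted p = 7.80e-07) and 0.35 ± 0.12 log2 at 20 days (1.27-fold, adjusted p = 0.0244). The 20-day call was lost with a replicate block (-0.34 log2, adjusted p = 0.0549), without the filter (adjusted p = 0.111), and on leaving out BMS-986158 replicate 1, BMS-986158 replicate 2 or DMSO replicate 1. The effect at 20 days was smaller than at 3 days by the test of the difference (0.61 ± 0.17 log2, adjusted p = 0.0296), which was lost on leaving out any one of 7 of the 12 libraries. A673 had 25.0, 26.5 and 26.8 CPM at 3 days of BMS-986158, against 27.9, 30.7 and 28.2 CPM in DMSO, and 23.0, 25.5 and 27.0 CPM at 20 days of BMS-986158, against 34.5, 31.6 and 32.6 CPM in DMSO. Neither pair overlapped, and the 20-day fall of 0.39 ± 0.11 log2 was called (adjusted p = 0.00748; 0.0535 without BMS-986158 replicate 1) whereas the 3-day change of -0.15 ± 0.11 log2 was not (adjusted p = 0.332). TC32 had 15.6, 19.9 and 17.2 CPM in BMS-986158, against 21.8, 19.2 and 22.2 CPM in DMSO, with overlap and no call (adjusted p = 0.0683). At 3 days the effect in CHLA10 differed from that in A673 (A673 minus CHLA10 0.81 ± 0.17 log2, adjusted p = 0.00210) and from that in TC32 (TC32 minus CHLA10 0.70 ± 0.17 log2, adjusted p = 0.00628).

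**Figure D3:**
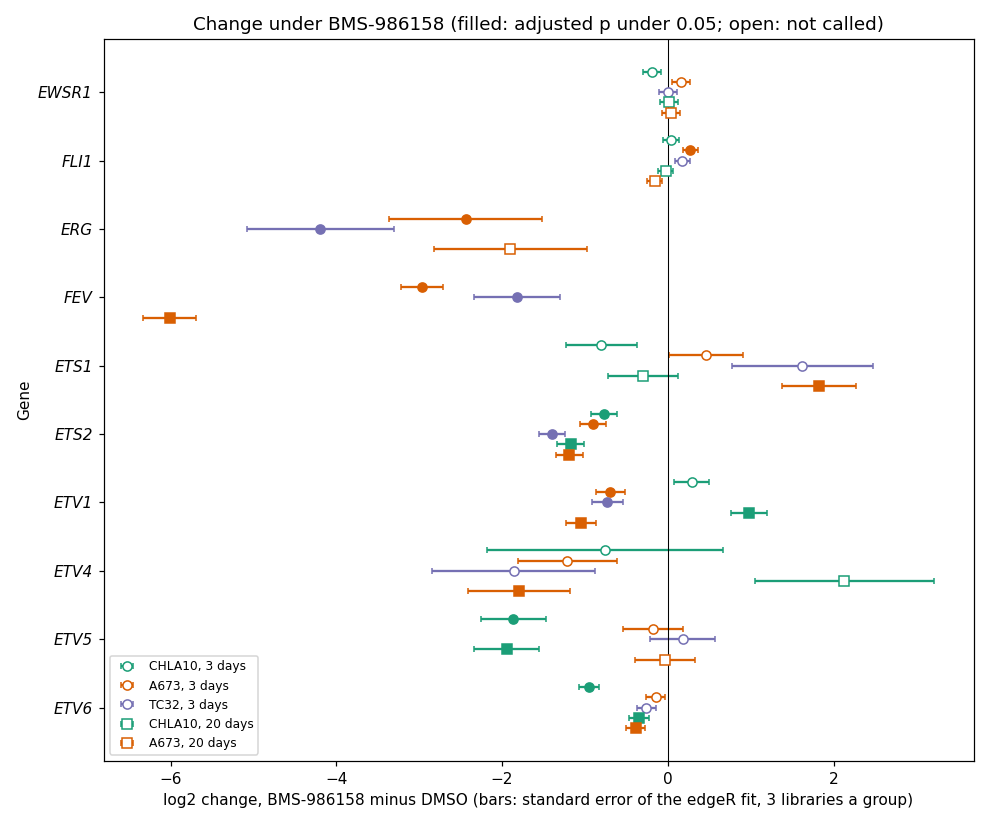
log2 change of each gene under BMS-986158 relative to DMSO (x axis) with the standard error of the edgeR fit, by gene (y axis) and comparison (colour for the line, circles for 3 days, squares for 20 days); filled symbols passed an adjusted p of 0.05, and ERG and FEV in CHLA10 are not drawn because a group had 3 counts or fewer. ETS2 lies left of 0 in all 5 comparisons, while ETV1 and ETV5 lie on different sides or distances in CHLA10 than in A673 and TC32.

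Counted over the 10 genes, 4 were called in 3-day CHLA10, all of them lower (FEV, ETS2, ETV5 and ETV6), where 29.8% of all genes tested were called. In 3-day A673 5 were called, with FLI1 higher and ERG, FEV, ETS2 and ETV1 lower, beside 33.7% of all genes. TC32 had 4 called, ERG (which passed the filter through its DMSO group), FEV, ETS2 and ETV1, all lower, beside 45.1% of all genes. At 20 days CHLA10 had ETV1 higher and ETS2, ETV5 and ETV6 lower, 4 of 10 beside 33.7% of all genes, and A673 had ETS1 higher and FEV, ETS2, ETV1, ETV4 and ETV6 lower, 6 of 10 beside 39.7%. With only 10 genes, none of these shares is read as departing from that of all genes. The median change of the 10 genes was -0.79, -0.44 and -0.50 log2 in 3-day CHLA10, A673 and TC32, and -0.16 and -0.72 log2 in 20-day CHLA10 and A673, while that of all genes tested lay within 0.02 log2 of 0. The DMSO groups serve also in the comparisons between times and lines.

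Genes were compared as CPM per kilobase of annotated exon. On that scale FLI1 was the highest of the 9 ETS genes in every CHLA10 library, treated or DMSO, and in the treated TC32 libraries. The length used for FLI1, 8172 bases, covers all its annotated exons, although the fusion joins only its DNA-binding end. The effect of this on the FLI1 ranks and shares was not tested. The 9 genes together summed to 20.4 ± 2.8 CPM per kb in 3-day BMS-986158 CHLA10 cells and 30.9 ± 0.8 in DMSO (SD, n = 3 each). In 3-day A673 the sum was 51.2 ± 0.9 in BMS-986158 and 80.6 ± 16.3 in DMSO, and in TC32 it was 20.7 ± 1.6 in BMS-986158 and 29.3 ± 0.7 in DMSO. At 20 days it was 19.9 ± 3.6 in BMS-986158 and 29.04 ± 0.99 in DMSO in CHLA10, and 44.4 ± 6.9 in BMS-986158 and 81.2 ± 6.3 in DMSO in A673. Every treated library was below every DMSO library of its comparison, at an exact permutation p of 0.1 in each, the smallest possible. FLI1 made up a larger share of the sum in treated cells, with means of 50.2% in BMS-986158 and 31.9% in DMSO in 3-day CHLA10. The means were 19.8% in BMS-986158 and 10.9% in DMSO in 3-day A673, and 39.4% in BMS-986158 and 24.5% in DMSO in TC32. In 20-day CHLA10 FLI1 made up 47.0% in BMS-986158 and 32.1% in DMSO, and in 20-day A673 it made up 21.9% in BMS-986158 and 13.2% in DMSO. Over all 28 ETS genes in the table the shares differed less. FLI1 then made up 7.67% in BMS-986158 and 6.29% in DMSO in 3-day CHLA10, and 5.99% in BMS-986158 and 4.0% in DMSO in 3-day A673. At 20 days it made up 7.22% in BMS-986158 and 5.70% in DMSO in CHLA10, and 5.85% in BMS-986158 and 4.88% in DMSO in A673. These 4 comparisons did not overlap. In TC32 it made up 3.90% in BMS-986158 and 3.59% in DMSO, with overlap (exact permutation p = 0.4). In DMSO cells ETS2 was the highest of the 9 in TC32, with 12.7 CPM per kb, and FEV was the highest in 20-day A673, with 20.3 CPM per kb. The sum takes in members already described one by one and adds no evidence of its own.

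**Figure D4:**
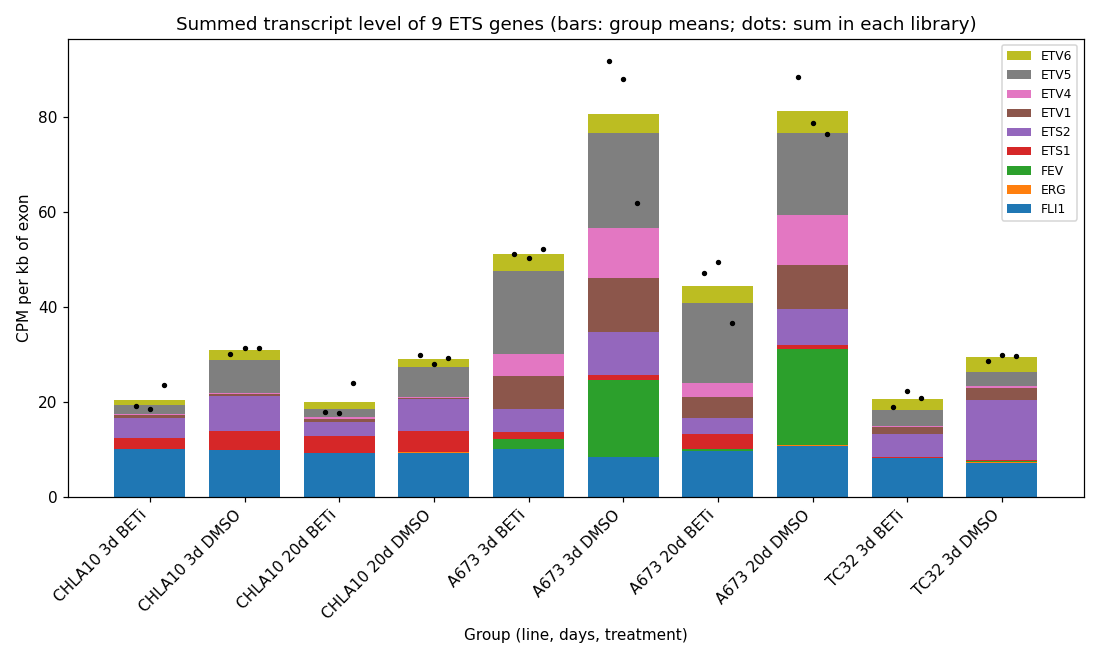
Summed level of the 9 ETS genes in CPM per kb of exon (y axis, starting at 0) by group (x axis); coloured blocks are group means of each gene and dots are the sums in the 3 libraries. Sums are lower in each BMS-986158 group than in its DMSO group, while the FLI1 block at the base keeps a height between 7.18 and 10.8.

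The 3 lines differed in these genes before treatment. Between 3-day DMSO A673 and CHLA10 cells 8 of the 10 genes were called, 6 higher and 2 lower in A673, beside 61.2% of all genes tested. ETV1 was higher in A673 by 4.47 ± 0.21 log2. ETV4 was higher by 6.91 ± 0.89 log2, and by 7.86 log2 without CHLA10 replicate 3, where the CHLA10 libraries held 0, 6 and 12 counts. FEV was higher by 8.01 ± 0.39 log2, and by 8.68 log2 without CHLA10 replicate 1, where the CHLA10 libraries held 4, 2 and 1 counts. Between DMSO TC32 and CHLA10 cells 8 were called, 5 higher and 3 lower in TC32, beside 61.1% of all genes, among them ETS1, lower in TC32 by 6.42 ± 0.66 log2 (-7.46 log2 without TC32 replicate 2), where the TC32 libraries held 4, 12 and 1 counts. Between DMSO TC32 and A673 cells 9 were called, 2 higher (ERG and ETS2) and 7 lower in TC32, beside 66.6%. ERG was also among the genes called higher in TC32 than in CHLA10. It passed the filter through the DMSO TC32 group, and FEV passed through the A673 groups. The filter thus favoured higher levels of ERG in TC32 and of FEV in A673, and these calls are given as a description. EWSR1 was called in none of the 3 comparisons of lines, with estimates between -0.20 and 0.02 log2. FLI1 was lower in DMSO A673 than in DMSO CHLA10 cells by 0.23 ± 0.09 log2 (adjusted p = 0.0297), a call lost without any one of 5 of the 6 libraries, and lower in DMSO TC32 than in DMSO CHLA10 cells by 0.46 ± 0.09 log2 (adjusted p = 9.87e-05). Between 20-day and 3-day DMSO cells none of the 10 genes was called in CHLA10 by edgeR, where 15.1% of all genes were, and 4 had an unadjusted p under 0.05. EWSR1 was nearest to a call (-0.30 ± 0.11 log2, adjusted p = 0.0568) and was the 1 gene called by limma-voom and by DESeq2. In A673 the same comparison called FLI1 alone, beside 6.10% of all genes.

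Differences of effect between lines or times were each tested as a contrast of the model. Beside 10.5% of all genes, 3 of the 10 differed between A673 and CHLA10 at 3 days (ETV1, ETV5 and ETV6), and the same 3 differed between TC32 and CHLA10, beside 13.8%. None differed between TC32 and A673 by edgeR, limma-voom or DESeq2, beside 24.2% of all genes by edgeR, and 1 had an unadjusted p under 0.05. At 20 days 5 differed between A673 and CHLA10 (FEV, ETS1, ETV1, ETV4 and ETV5), beside 21.9%. Between the 20-day and the 3-day effect, FEV and ETV6 differed in CHLA10, beside 6.32% of all genes, and FLI1 and FEV in A673, beside 7.26%. The FEV call in CHLA10 rests on 0 to 4 counts a library, with 0 in all treated 3-day libraries, and was lost with limma-voom (adjusted p = 0.161), without the filter (0.0539) and on leaving out any one of 10 of the 12 libraries. The comparisons between lines share the CHLA10 libraries.

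Of 19 further ETS genes, 12 passed the filter. For the counts here and in the lists that follow, the shares of all genes called are those above (29.8%, 33.7% and 45.1% in 3-day CHLA10, A673 and TC32, 33.7% and 39.7% in 20-day CHLA10 and A673). ELK3 and ELF4 were called lower in all 5 comparisons. ELF4, which acts in lymphocytes and macrophages, fell by 1.88 and 1.60 log2 in 3-day and 20-day CHLA10, by 1.19 and 0.66 log2 in 3-day and 20-day A673, and by 0.46 log2 in TC32 (adjusted p = 0.0488). ELK3, a partner of serum response factor, fell by between 0.36 log2 in 3-day A673 and 0.99 log2 in 20-day CHLA10. In TC32 5 were called higher, ETV3 (0.87 log2), ELK4 (0.75), ELK1 (0.66), ELF1 (0.62) and GABPA (0.61), and 4 lower, among them ELF3 by 3.53 log2 and ETV2 by 1.43 log2. ELF3 averaged 5.29 CPM in DMSO TC32 cells and at most 0.483 CPM in any other group. The filter on low counts may thus have favoured its fall, which is given as a description. The counts higher and lower were 2 and 3 in 3-day CHLA10, 0 and 2 in 3-day A673, 0 and 4 in 20-day CHLA10, and 1 and 3 in 20-day A673, with list medians between -0.32 and 0.20 log2.

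Known targets of the fusion were read beside the FLI1 and EWSR1 counts. Of 18 genes that the fusion is known to activate, 12 fell in 3-day CHLA10, 8 in 3-day A673 and 11 in TC32. At 20 days 13 fell in CHLA10 and 14 in A673. None was called higher by edgeR in any of these comparisons. Among all genes tested, 15.7%, 18.4%, 22.8%, 17.2% and 19.9% fell in those comparisons. The list median was -0.85, -0.44, -0.66, -0.82 and -0.96 log2 in the same order. Most of the Ewing sarcoma markers counted further above are also in this list, so those counts and these are not separate observations. LOXHD1, which encodes a protein of the hair cells of the ear, fell by 3.74, 3.15, 2.18, 5.36 and 6.04 log2, and PAPPA, a protease that frees insulin-like growth factor, by 2.29, 3.49, 1.64, 2.84 and 3.52 log2. PPP1R1A, a phosphatase inhibitor, and GLI1, the hedgehog pathway factor, also fell in all 5. NR0B1, an orphan nuclear receptor, was called lower in 20-day A673 (-1.07 log2) and in no other comparison, and DKK2 in none. Of 10 genes that the fusion is known to repress, the counts higher and lower were 1 and 2 in 3-day CHLA10, 1 and 2 in 3-day A673, 1 and 4 in TC32, 2 and 3 in 20-day CHLA10, and 6 and 1 in 20-day A673. Among all genes tested, 14.0%, 15.3%, 22.3%, 16.5% and 19.7% rose in those comparisons. In 20-day A673 THBS1, LOX, CCN1 and CCN2, genes of the matrix and of cell adhesion, rose by 5.62, 4.67, 4.0 and 3.95 log2, and the list median was 1.63 log2.

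Regulators of the PEA3 genes and outputs of the ERK pathway were given beside ETV1, ETV4 and ETV5. CIC, the repressor of the 3 genes, rose by 0.57 log2 in 3-day CHLA10, 0.74 log2 in 20-day CHLA10 and 0.83 log2 in TC32, and was not called in A673 (0.10 and -0.08 log2 at 3 and 20 days). Of the 5 regulators, 1 was called in each CHLA10 comparison, 2 in each A673 comparison and all 5 in TC32, 4 of them higher. COP1, the ligase, fell by 0.28 log2 at both times in A673 and by 0.26 log2 in TC32. Of 15 ERK output genes, those higher and lower numbered 3 and 5 in 3-day CHLA10, 4 and 3 in 3-day A673, 5 and 1 in TC32, 7 and 3 in 20-day CHLA10, and 7 and 2 in 20-day A673. DUSP4, a phosphatase that switches off ERK, fell by 3.07, 3.68 and 2.76 log2 in 3-day CHLA10, 20-day CHLA10 and TC32 and was not called in A673. FOSL1, an AP-1 subunit, fell by 3.49 log2 in 3-day CHLA10, where its means were low, at 0.069 CPM in BMS-986158 and 0.839 CPM in DMSO. Its means in 3-day A673 were 2.05 CPM in BMS-986158 and 7.48 CPM in DMSO. In A673 DUSP6, another ERK phosphatase, rose by 0.93 log2 at 3 days, and at 20 days PHLDA1, IER3, SPRY1 and SPRY2 rose by 4.41, 2.93, 2.74 and 1.91 log2.

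Genes of the FET family and regulators of the fusion or its protein made up a list of 14, all tested. Those higher and lower numbered 2 and 1 in 3-day CHLA10, 8 and 1 in 3-day A673, 7 and 2 in TC32, 2 and 1 in 20-day CHLA10, and 3 and 1 in 20-day A673. LIN28B, an RNA-binding protein of embryonic tissue, fell by 1.74 and 1.78 log2 in 3-day and 20-day CHLA10 and by 1.01 and 2.77 log2 in 3-day and 20-day A673. OTUD7A, a deubiquitinase, rose in all 5 comparisons, by between 1.25 and 2.55 log2.

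Likeness of pattern was measured as Pearson's r of log2 CPM over the 30 libraries after the mean of each line was taken off, a description in which all genes share library depth and treatment. FEV was most like MFAP3L (r = 0.969), MAP7D2 (0.923) and CCDC74A (0.913), and ETS2 most like PRRT4 (0.953), DCDC2 (0.948) and SCNN1G (0.944). ETV6 was most like FAS (0.880), ETV5 like DGKD (0.861), ETV1 like LIMK2 (0.860), ERG like NUDT8 (0.852), ETS1 like RAB5A (0.827) and ETV4 like ECM1 (0.817). EWSR1 was most like EIF3B (0.833) and FLI1 most like ZNF207 (0.837), whereas EWSR1 and FLI1 had r = 0.349 with each other. Within the 10 genes the closest pair was ETV5 and ETV6 (0.721).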

How the data were processed

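Per the labels' protocols, poly(A) RNA was sequenced in paired reads, and the submitters' processing notes name FastQC, Trim Galore, STAR, DESeq2 and GRCh38. The authors deposited raw read counts per Ensembl gene; no source used here states the annotation or the strand setting. Symbols came from the reference tables, and exon length and overlaps from GENCODE 29. The counts of 30 libraries were fitted together with edgeR 4.0.16 in R 4.3.3 (filterByExpr, TMM, robust quasi-likelihood F test, 1 mean per group, 16 contrasts), with Benjamini-Hochberg adjustment over 16713 genes; SE is the absolute log2 change over the square root of F. The fit was tested on simulated data. Alternatives used limma 3.58.1 (voom), DESeq2 1.42.0, other scalings and filters, a replicate block and left-out libraries. Same-numbered treated and DMSO libraries deviated together in 20-day CHLA10 (correlations 0.20, 0.15 and 0.36), so there the block may stand for pairing. The labels give only replicate numbers, and replicate 1 of 20-day A673 reached 0.16, so that reading rests on the correlations alone. The 10 genes and all lists were chosen with earlier results of these data known. All 10 genes were named; from each list, up to 4 called genes with the widest change were named per comparison, besides those singled out after their values were seen (NR0B1, DKK2, COP1, and list members given in all comparisons). Promoter sequences are RefSeq's (GRCh38.p14). A few list genes are not reported here.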

Additional observations from a re-analysis of the deposited data

Results flagged for a closer look

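The changes under BMS-986158 of 7 genes differed between lines or between times by a test of the difference itself (edgeR, adjusted over all genes). All values are differences of log2 changes. Between A673 and CHLA10 at 3 days, ETV1 differed by -0.984, ETV5 by 1.683 and ETV6 by 0.807. Between TC32 and CHLA10 at 3 days the same genes differed by -1.021, 2.043 and 0.695. Between A673 and CHLA10 at 20 days, FEV differed by -7.379, ETS1 by 2.129, ETV1 by -2.024, ETV4 by -3.932 and ETV5 by 1.912. The FEV value there rests on CHLA10 libraries of 0 to 2 counts and the ETV4 value on 1 CHLA10 library. Between 20 and 3 days, FEV differed by -3.045 in A673. In CHLA10 its fitted difference was 5.884, but no library had over 4 counts and the treated 3-day libraries had 0, so the size has no meaning as a fold. That call was lost with limma-voom (3.302, adjusted p = 0.161), without the filter on low counts (0.0539) and on leaving out any one of 10 of the 12 libraries. ETV6 differed by 0.609 in CHLA10 and FLI1 by -0.428 in A673 between those times. The cause of these differences was not tested.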

How the results depend on the processing

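Of 2527 values of single genes under an alternative, 2365 stayed on the same side of the threshold, 111 lost a call, 51 gained one and 0 called values reversed. Values that were not called could change sign, such as that of ETV4 in 20-day CHLA10 (-1.36 log2 without BMS-986158 replicate 3). The number of the 10 genes called moved by over 1.5 times as follows. In 3-day A673 it was 3 without the filter and 3 at an adjusted p under 0.01. In TC32 it was 7 without the 4 distant libraries, a setting added after the data were seen. For the 20-day minus the 3-day effect it was 0 without the filter, with only the lines compared and at 0.01, and 1 with limma-voom and without the 4 libraries in CHLA10, and 1 without the filter, with only the lines compared and at 0.01 in A673. For A673 minus CHLA10 at 3 days it was 6 without the 4 libraries and 1 at 0.01. For TC32 minus CHLA10 it was 5 with DESeq2 and without the 4 libraries, and 1 at 0.01. For A673 minus CHLA10 at 20 days it was 2 at 0.01. For 20-day against 3-day DMSO it was 1 with RLE scaling, library size alone, limma-voom and DESeq2 and 2 with only the line compared and without the 4 libraries in CHLA10, and 0 with only the line compared and at 0.01, and 2 without the 4 libraries, in A673. The cause was not tested.

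Leaving out 1 library at a time gave 3 to 4 genes called in 3-day CHLA10, 3 to 4 in 3-day A673, 4 to 5 in TC32, 3 to 5 in 20-day CHLA10 and 5 to 6 in 20-day A673. For the differences of effect it gave 0 to 2 and 1 to 2 between times in CHLA10 and A673, 1 to 3, 2 to 3 and 0 to 0 between lines at 3 days (A673 minus CHLA10, TC32 minus CHLA10, TC32 minus A673), and 4 to 5 at 20 days. For vehicle cells it gave 0 to 1 and 0 to 2 between times in CHLA10 and A673, and 6 to 7, 8 to 9 and 8 to 9 between lines (A673 and CHLA10, TC32 and CHLA10, TC32 and A673).

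With a replicate block, 5, 5, 6, 4 and 6 genes were called in 3-day CHLA10, 3-day A673, TC32, 20-day CHLA10 and 20-day A673, 2 and 2 between times in CHLA10 and A673, and 3, 4, 0 and 5 between lines (A673 minus CHLA10, TC32 minus CHLA10 and TC32 minus A673 at 3 days, A673 minus CHLA10 at 20 days). Outside 20-day CHLA10 the 12 correlations of same-numbered libraries lay between -0.16 and 0.16, and pairing was not assumed. There the block called ETS1 lower in 3-day CHLA10, and ETS1 higher and ETV4 lower in TC32. In 3-day A673 it called ETV4 lower but ERG no longer. In 20-day CHLA10 the block changed the calls of ETV4 and ETV6 given above and no other of the 10. No paired fit was made between DMSO groups of different lines or times, because the block was set within a line and time. Depth limits ERG, FEV outside A673 and ETV4 outside A673, where libraries hold between 0 and 80 counts.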
